A study of Homo sapiens with 8 samples.

Results

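The genes FOS, FOSB, FOSL1, FOSL2, JUN, JUNB, JUND, ATF3 and MAFF, which encode AP-1 transcription factors and close relatives, were followed in human fibroblasts after loss of SUPT4H1. They are 9 of the 25268 gene symbols in the deposited tables, taken by symbol, and each has 1 row with the status OK in all 8 samples. Cells of 2 fibroblast lines, called line 1 and line 2 and labelled as population controls, were transfected with small interfering RNA (siRNA), either directed at SUPT4H1 or non-targeting as a control. Each line had 2 SUPT4H1 siRNA samples and 2 control siRNA samples, so that 4 samples stood against 4. All cells grew in DMEM with 10% serum and antibiotics, were transfected with Lipofectamine RNAiMax, and gave polyadenylated RNA for sequencing. The labels state neither the time after transfection nor the serum state at harvest. Replicates are described as repeat siRNA treatments of a line, without saying whether the cultures were separate, and the p-values reflect no more than how these samples vary, partly perhaps for technical reasons.

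AP-1 is a dimer of basic leucine zipper (bZIP) proteins. Jun proteins pair with each other or with Fos proteins, while Fos proteins need a Jun or another bZIP partner. The classic dimer reads DNA words of the form TGANTCA, though not with every base at N alike. FOS, FOSB, JUN and JUNB are immediate early genes, whose short-lived mRNAs appear within minutes of serum or stress, and FOSL1 and FOSL2 follow later and last longer. In fibroblasts AP-1 drives matrix proteases, growth regulators and cytokines. SUPT4H1 encodes SPT4, a subunit of the elongation factor DSIF, which holds and then releases RNA polymerase II near promoters, a step long studied at FOS and JUNB.

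The members lie on several chromosomes in hg19: FOS at chr14:75745481-75748937, FOSB at chr19:45971253-45978437, FOSL1 at chr11:65659692-65667997 and FOSL2 at chr2:28615779-28637516. JUN lies at chr1:59246463-59249785, JUNB at chr19:12902310-12904125, JUND at chr19:18390504-18392466, ATF3 at chr1:212738676-212794119 and MAFF at chr22:38597939-38612517. They span from the 1.82 kb of JUNB to the 55.44 kb of ATF3, and FOSL2, MAFF and ATF3 are longer than 10 kb.

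The promoters of 4 members are shown. JUN and ATF3 were lower after SUPT4H1 siRNA and share a DNA word, and JUND and MAFF were higher and share another. These 4 were chosen after their values were seen, so the pairing of word and direction is part of that choice. FOSL2 and JUNB also fell but do not hold TGACATCA, and FOSL2 holds TGACGT. FOSL1, which rose, has no promoter sequence at hand. A link between word and direction was not tested. For ATF3 and MAFF, the window that holds the word is shown. Each line gives the 250 bases before the transcript start in RefSeq on GRCh38.p14, 5′ to 3′ along the gene, with matches to TGANTCA, TGACGTCA, TGACATCA and TGACGT on either strand in capitals. TGACGTCA, the cyclic AMP response element, contains TGACGT. JUN is at chr1:58784048-58784297 (minus strand), ATF3 at chr1:212565157-212565406 (plus strand), JUND at chr19:18281623-18281872 (minus strand) and MAFF at chr22:38201744-38201993 (plus strand).
JUN: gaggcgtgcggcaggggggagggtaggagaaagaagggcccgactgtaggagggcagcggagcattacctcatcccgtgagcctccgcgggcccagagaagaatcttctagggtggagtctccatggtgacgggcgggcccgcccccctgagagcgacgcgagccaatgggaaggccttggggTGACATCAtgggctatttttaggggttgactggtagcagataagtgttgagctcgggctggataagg
ATF3: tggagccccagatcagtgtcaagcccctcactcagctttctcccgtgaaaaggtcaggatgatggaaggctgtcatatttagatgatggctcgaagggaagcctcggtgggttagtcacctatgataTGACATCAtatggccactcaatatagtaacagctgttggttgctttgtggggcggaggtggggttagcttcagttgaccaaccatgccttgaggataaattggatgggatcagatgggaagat
JUND: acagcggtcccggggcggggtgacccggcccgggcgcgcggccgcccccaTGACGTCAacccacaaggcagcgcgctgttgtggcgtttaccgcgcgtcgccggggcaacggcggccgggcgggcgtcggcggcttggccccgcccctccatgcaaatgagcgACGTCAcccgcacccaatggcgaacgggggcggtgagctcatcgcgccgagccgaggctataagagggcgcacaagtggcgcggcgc
MAFF: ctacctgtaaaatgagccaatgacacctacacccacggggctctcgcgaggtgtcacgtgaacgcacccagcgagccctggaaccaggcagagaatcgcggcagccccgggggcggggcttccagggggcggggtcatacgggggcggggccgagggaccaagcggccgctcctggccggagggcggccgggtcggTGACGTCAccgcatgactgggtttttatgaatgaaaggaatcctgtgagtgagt

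RefSeq windows were at hand for 8 of the 9 genes (10 windows, as ATF3 and MAFF have a second start each). JUN and ATF3 hold TGACATCA, which starts 67 and 123 bases before the transcript start, and 2.37% of the 35116 RefSeq windows hold it. JUND and MAFF hold TGACGTCA, starting 200 and 54 bases before the start, against 1.65% of all windows. The second windows of ATF3 and MAFF hold neither word, and which start these cells use was not tested. The shorter TGACGT also stands in FOS, FOSB and FOSL2, 64, 60 and 66 bases before the start, and once more in JUND in reverse at 87 bases, against 7.10% of all windows. TGANTCA itself, with any base at N, is in 6.57% of all windows and in none of the 10 here. The CArG box, the word of serum response factor, is in 1.16% of all and likewise in none of the 10. Bases further upstream were not searched, so neither word is shown to be absent from these promoters. CCAAT, present in 32.01% of windows on either strand, is found in JUN, JUNB, JUND, ATF3 and MAFF. TATAAA, in 10.72% of windows, is found in FOS, FOSB and JUNB 33 to 30 bases before the start, and in the other ATF3 window at 230 bases. A match is only a match of letters.

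The targeted gene fell in both lines. SUPT4H1 stood at 1.37 and 1.43 FPKM after SUPT4H1 siRNA against 25.6 and 25.6 FPKM after control siRNA in line 1, and at 1.69 and 1.74 against 26.2 and 28.3 FPKM in line 2. FPKM are fragments per kilobase of transcript, scaled to sequencing depth. They summed to 288293 to 305680 per sample, and no fragment totals are given. Of 12 fibroblast markers, 10 had usable values, all at 1 FPKM or more in every sample, among them COL3A1, DCN and LUM. COL1A1 and COL1A2 are listed at 0 in the control samples because of their status. Of the markers of other cells, KRT5, KRT1 and CD3E are listed at 0 in every sample, and the epithelial, endothelial and melanocyte lists each summed to no more than 0.565 FPKM. The keratinocyte list summed to 7.73 to 8.85 FPKM after SUPT4H1 siRNA and 7.66 to 8.63 FPKM after control siRNA, nearly all of it KRT10. The smooth muscle list summed to 1.31 to 14.4 FPKM after SUPT4H1 siRNA and 1.86 to 9.71 FPKM after control siRNA, mostly CNN1, while DES stood at 0.124 to 0.398 FPKM after SUPT4H1 siRNA and 0.584 to 1.19 FPKM after control siRNA, without overlap. The 4 leukocyte markers summed to 59.4 to 78.1 FPKM after SUPT4H1 siRNA and 45.1 to 51.9 FPKM after control siRNA, nearly all of it CD68, with PTPRC at no more than 0.206 FPKM. The part of these markers in the results was not tested. In bulk samples, a change in the number of cells that make an RNA and a change in RNA per cell cannot be told apart.

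The comparison asked which AP-1 genes differ between SUPT4H1 siRNA and control siRNA once the lines are allowed their own levels. Of the 7 members tested, FOSL1, JUND and MAFF rose and FOSL2, JUN and JUNB fell, while FOS did not pass. ATF3 and FOSB averaged less than 1 FPKM and were left out of this fit. The test was limma on log2(FPKM + 1) over the 11486 genes with a mean of at least 1 FPKM, with the line as a block and an adjusted p under 0.05. Over all tested genes 26.4% rose and 15.0% fell, so that 3 rises and 3 falls among 7 stand against a background in which many genes changed. After median ratio scaling, rises were 50.2% of the calls over all genes, compared with 63.8% unscaled, and all 6 member calls kept their direction and passed. The series design pools the lines by treatment, and with such a fit 3.53% of genes rose, 1.73% fell and 0 of the 7 members passed, with adjusted p of 0.0764 for JUND and 0.158 or more for the others. The median log2 change of the 7 was 0.18, the value of JUND, against 0.03 over all tested genes. The 7 values were split, with none between the -0.20 of JUNB and the 0.18 of JUND, so the median describes no common shift.

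**Figure D1:**
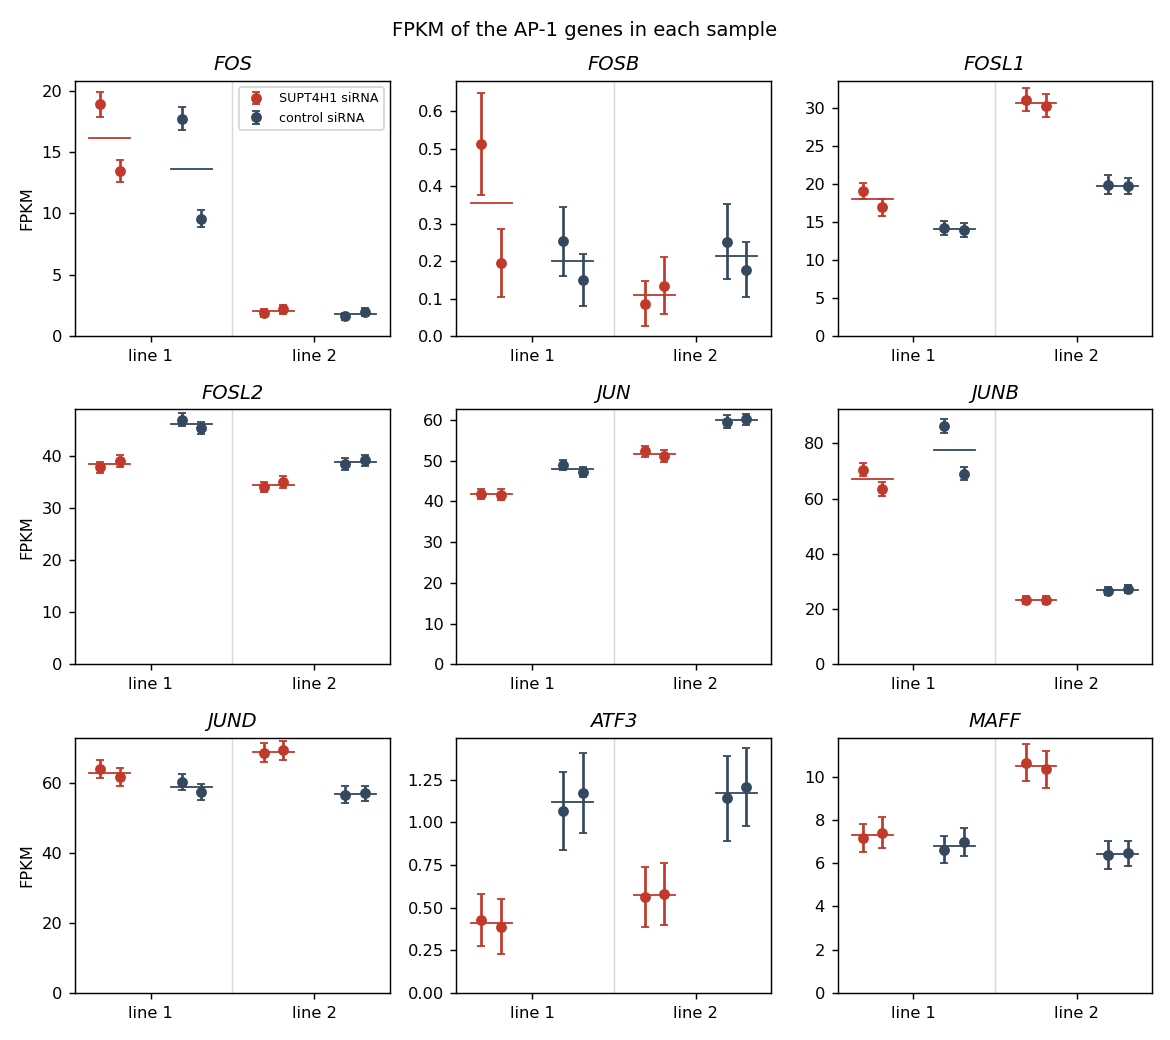
FPKM of each of the 9 genes (vertical axis, from 0) in the 8 samples, by line, with SUPT4H1 siRNA in red and control siRNA in blue. Points are samples, short bars are means of 2 replicates, and error bars are the intervals deposited with the values. ATF3 stands at 0.389 to 0.578 FPKM in all SUPT4H1 siRNA samples and at 1.07 to 1.21 FPKM in all control samples, while FOS and JUNB differ more between the lines than between the siRNAs.

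Within the Fos family the members went different ways. FOSL1, or Fra-1, which lacks the strong activation domain of FOS, rose in both lines. It stood at 19.1 and 16.9 FPKM after SUPT4H1 siRNA and 14.2 and 14.0 FPKM after control siRNA in line 1. In line 2 FOSL1 stood at 31.1 and 30.4 FPKM after SUPT4H1 siRNA and 19.9 and 19.7 FPKM after control siRNA. In each line both SUPT4H1 siRNA samples lay above both control samples, by more than the replicates differed. The log2 change was 0.47 (SE 0.06, 95% interval 0.33 to 0.60, adjusted p = 4.61e-04 in limma), and without a term for the line the adjusted p was 0.296.

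FOSL2, or Fra-2, the relative of FOSL1 that is the most abundant Fos family mRNA here, fell. FOSL2 stood at 37.8 and 39.1 FPKM after SUPT4H1 siRNA and 47.0 and 45.3 FPKM after control siRNA in line 1. The values in line 2 were 34.0 and 35.0 FPKM after SUPT4H1 siRNA and 38.5 and 39.2 FPKM after control siRNA. Each line had its SUPT4H1 siRNA samples below its control samples, without overlap. The log2 change was -0.21 (SE 0.03, 95% interval -0.28 to -0.15, adjusted p = 6.52e-04 in limma, 0.184 without a term for the line).

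FOS, the founding member, did not pass. Its mRNA stood at 18.9 and 13.5 FPKM after SUPT4H1 siRNA and 17.7 and 9.57 FPKM after control siRNA in line 1. In line 2 FOS was low, at 1.84 and 2.18 FPKM after SUPT4H1 siRNA and 1.60 and 1.95 FPKM after control siRNA. The siRNA groups overlapped in each line, and in line 1 the deposited intervals of the replicates did not overlap, so that the spread between replicates was larger than those intervals. The log2 difference was 0.19 (SE 0.17, 95% interval -0.20 to 0.58, adjusted p = 0.394), an interval that leaves room for a change in either direction. FOS was higher in each SUPT4H1 siRNA sample than in the same-numbered control sample of its line. With replicate numbers as block, though they were not taken to pair the samples, limma gave an adjusted p of 0.0651. Within line 1 the difference was -0.14 without the lower control sample and 0.68 without the higher. Over both lines it was 0.01 without the lower control sample of line 1 and 0.34 without the higher. Without the higher SUPT4H1 siRNA sample of line 1 it was 0.09, and FOS did not pass over both lines in any of these.

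FOSB, which is transient like FOS, was near the floor of the measurement. It stood at 0.514 and 0.195 FPKM after SUPT4H1 siRNA and 0.253 and 0.150 FPKM after control siRNA in line 1, and at 0.0860 and 0.135 FPKM after SUPT4H1 siRNA and 0.251 and 0.177 FPKM after control siRNA in line 2. The deposited interval reached 26.53 to 70.05% of the value to either side. Fitted over 18984 genes with no filter, the log2 difference was 0.02 (95% interval -0.20 to 0.24, adjusted p = 0.919), and its sign depends on the setting.

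All 3 Jun genes passed, 2 of them downwards. JUN, which encodes c-Jun, the strongest activator among the Jun proteins, stood at 41.8 and 41.6 FPKM after SUPT4H1 siRNA and 49.0 and 47.2 FPKM after control siRNA in line 1. The values in line 2 were 52.3 and 51.1 FPKM after SUPT4H1 siRNA and 59.6 and 60.1 FPKM after control siRNA. After SUPT4H1 siRNA its mean was 86.8% of control in line 1 and 86.4% in line 2, a log2 change of -0.20 (SE 0.02, 95% interval -0.25 to -0.15, adjusted p = 2.16e-04, 0.378 without a term for the line).

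JUNB, often an antagonist of c-Jun, stood at 70.5 and 63.5 FPKM after SUPT4H1 siRNA and 86.4 and 69.1 FPKM after control siRNA in line 1, where the groups overlapped. In line 2 JUNB stood at 23.3 and 23.4 FPKM after SUPT4H1 siRNA and 26.6 and 27.3 FPKM after control siRNA, without overlap. The log2 change was again -0.20, with a wider interval of -0.35 to -0.06 (SE 0.06). JUNB was called at an adjusted p of 0.0316 in limma, or 0.0066 with replicate numbers as block and 0.0179 after median ratio scaling. This call was lost without the higher control sample (adjusted p = 0.0515) or the lower SUPT4H1 siRNA sample (0.0852) of line 1, without any 1 of the 4 samples of line 2 (0.0626 to 0.0755), with no filter on FPKM (0.0772) and without a term for the line (0.897).

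JUND, the broadly expressed Jun that slows growth in fibroblasts, rose. It stood at 63.9 and 61.7 FPKM after SUPT4H1 siRNA and 60.2 and 57.3 FPKM after control siRNA in line 1. In line 2 JUND stood at 68.5 and 69.1 FPKM after SUPT4H1 siRNA and 56.6 and 57.0 FPKM after control siRNA. All SUPT4H1 siRNA samples lay above all control samples, narrowly in line 1. The log2 change was 0.18 (SE 0.04, 95% interval 0.10 to 0.27, adjusted p = 0.00578 in limma).

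ATF3, a stress-induced bZIP factor that pairs with Jun proteins and often represses, had the largest relative fall of the 9. It stood at 0.428 and 0.389 FPKM after SUPT4H1 siRNA and 1.07 and 1.17 FPKM after control siRNA in line 1, and at 0.564 and 0.578 FPKM after SUPT4H1 siRNA and 1.14 and 1.21 FPKM after control siRNA in line 2. The groups did not overlap, nor did any deposited interval of the SUPT4H1 siRNA samples reach that of a control sample. ATF3 was at 36.5% of its control level in line 1 and 48.7% in line 2. Because its mean was 0.818 FPKM, it was tested with no filter, where 8.93% of the 18984 genes fell. The log2 change there was -0.53 (SE 0.03, 95% interval -0.61 to -0.45, adjusted p = 2.49e-04 in limma). ATF3 also passed without a term for the line (adjusted p = 0.00423, where 0.953% of genes fell), and since the added 1 weighs on so low a gene, its log2 change was -1.09 with 0.1 added instead.

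MAFF, a small Maf protein that binds DNA but lacks an activation domain, rose, mostly in line 2. It stood at 7.15 and 7.41 FPKM after SUPT4H1 siRNA and 6.62 and 6.98 FPKM after control siRNA in line 1, a narrow gap. In line 2 MAFF stood at 10.6 and 10.3 FPKM after SUPT4H1 siRNA and 6.38 and 6.46 FPKM after control siRNA. The log2 change over both lines was 0.36 (SE 0.10, 95% interval 0.14 to 0.58, adjusted p = 0.0176 in limma). The call was lost without any 1 sample of line 2 (adjusted p between 0.0511 and 0.056), when low genes were kept (0.053) and without a term for the line (0.158).

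In all, both SUPT4H1 siRNA samples lay above both control samples in each line for FOSL1, JUND and MAFF, and below them for FOSL2 and JUN, among the 7 genes tested. Over all tested genes 28.7% were so ordered upwards and 16.5% downwards.

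**Figure D2:**
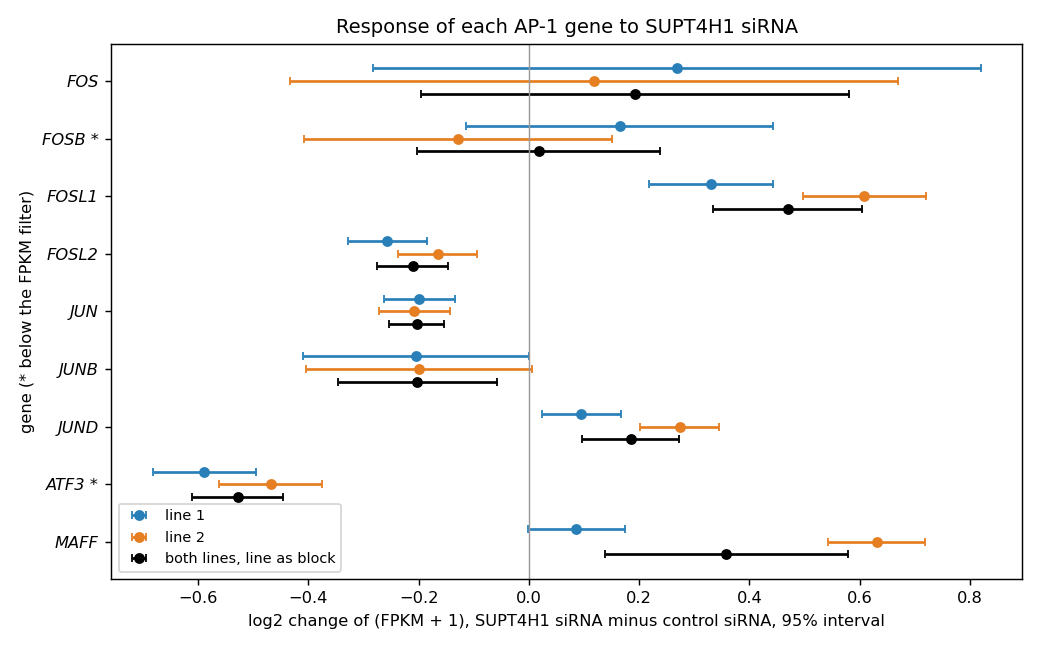
Log2 change of FPKM + 1, SUPT4H1 siRNA minus control siRNA (horizontal axis), for each gene in line 1 (blue), line 2 (orange) and both lines with the line as block (black), with 95% intervals. ATF3 and FOSB, marked by an asterisk, come from the fit with no filter on FPKM. FOSL1, JUND and MAFF sit further right in line 2 than in line 1, and the intervals of FOS are the widest.

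The next comparison asked whether the lines responded alike. In line 2, FOSL1, JUND and MAFF rose and FOSL2 and JUN fell, where 26.3% of all tested genes rose and 15.5% fell. In line 1, FOSL1 rose and FOSL2 and JUN fell, where 18.2% rose and 11.2% fell. There JUND missed the threshold (adjusted p = 0.0509 in limma) as did MAFF (0.128). JUNB passed in neither line alone (0.108 in line 2 and 0.121 in line 1). JUND passed in line 1 with a minimum mean of 5 FPKM (0.0444) and without the higher control sample of line 1 (0.0429). MAFF had a log2 change of 0.63 in line 2 and 0.09 in line 1, and the difference of 0.54 passed its own test (SE 0.05, adjusted p = 9.06e-04). Over all genes 8.87% differed between the lines.

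The difference between the lines also passed for FOSL1, with log2 changes of 0.61 in line 2 and 0.33 in line 1 (adjusted p = 0.0442), and for JUND, with 0.27 in line 2 and 0.10 in line 1 (adjusted p = 0.0427). Both of these are close to the threshold. The FOSL1 difference was lost without the lower SUPT4H1 siRNA sample of line 1, without either control sample of line 1 and without any 1 sample of line 2 (adjusted p = 0.0609 to 0.133). The JUND difference was lost without any 1 sample but the lower control sample of line 1 (0.0524 to 0.137). JUN had almost the same change in both lines, with -0.21 in line 2 and -0.20 in line 1 (difference -0.01, 95% interval -0.10 to 0.08). JUNB had -0.20 in line 2 and -0.20 in line 1 (difference 0.01, 95% interval -0.28 to 0.29), but its change in line 1 was -0.05 without the higher control sample and -0.36 without the lower. For ATF3 the change was -0.47 in line 2 and -0.59 in line 1, and the difference did not pass (adjusted p = 0.312 with no filter).

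The lines also differed in the level of most of these genes. FOS averaged 2.01 FPKM after SUPT4H1 siRNA and 1.78 FPKM after control siRNA in line 2, and 16.2 and 13.7 FPKM in line 1. On the log2(FPKM + 1) scale, the level of FOS in line 2 minus line 1 was -2.42 (adjusted p = 2.77e-06 in limma), and that of JUNB was -1.48 (adjusted p = 1.06e-07). Averaged over both siRNAs, FOSL1 was higher in line 2 by 0.60 and JUN by 0.31, and FOSL2 lower, at -0.20, each past the test. MAFF was also higher in line 2 on that average (0.20), but after SUPT4H1 siRNA it stood at 10.5 FPKM in line 2 and 7.28 FPKM in line 1, and after control siRNA at 6.42 FPKM in line 2 and 6.80 FPKM in line 1, the other way round. JUND did not pass (0.04, adjusted p = 0.125). Over all tested genes 29.4% were higher and 40.3% lower in line 2. No more than these 2 lines is compared.

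The order of levels, per kilobase of transcript, therefore depended on the line. After control siRNA in line 1 it ran JUNB, JUND, JUN, FOSL2, FOSL1, FOS, MAFF, ATF3 and FOSB, with FOS and FOSL1 overlapping and the lower JUN sample (47.2 FPKM) just above the higher FOSL2 sample (47.0 FPKM). After control siRNA in line 2 the order was JUN, JUND, FOSL2, JUNB, FOSL1, MAFF, FOS, ATF3 and FOSB, with no overlap between neighbours. After SUPT4H1 siRNA in line 2, JUND stood above JUN and FOSL1 above JUNB, at 68.8 against 51.7 FPKM and 30.7 against 23.3 FPKM, the reverse of their order in the control samples of that line. After SUPT4H1 siRNA in line 1, JUNB and JUND had overlapping values.

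Summed over the 4 Fos genes, the level was 70.2 ± 4.25 FPKM after SUPT4H1 siRNA and 67.4 ± 8.83 FPKM after control siRNA (SD, n = 4 each, exact permutation test within the lines, 2-sided p = 0.444). By line, this sum was 67.1 and 67.7 FPKM after SUPT4H1 siRNA and 60.2 and 61.0 FPKM after control siRNA in line 2, without overlap, and 76.3 and 69.7 FPKM after SUPT4H1 siRNA and 79.2 and 69.0 FPKM after control siRNA in line 1, with overlap. The 3 Jun genes summed to 158 ± 16.4 FPKM after SUPT4H1 siRNA and 164 ± 25.3 FPKM after control siRNA (SD, n = 4 each, exact permutation p = 0.556). Their make-up differed more than their sums. FOSL1 made up 45.6% of the Fos sum after SUPT4H1 siRNA and 32.7% after control siRNA in line 2, and 24.7% and 19.1% in line 1. FOSL2 made up 51.2% after SUPT4H1 siRNA and 64.0% after control siRNA in line 2, and 52.8% and 62.5% in line 1. JUND made up 47.8% of the Jun sum after SUPT4H1 siRNA and 39.5% after control siRNA in line 2, and 36.6% and 31.9% in line 1. For these 3 shares the ranges of the replicates did not overlap between the siRNAs in either line. The same held for JUN, at 23.75 to 24.95% after SUPT4H1 siRNA and 25.05 to 27.17% after control siRNA in line 1. Its ranges in line 2 were 35.59 to 36.29% and 41.66 to 41.76%. Shares of FOS, FOSB and JUNB overlapped in line 1. Shares within a family are tied to each other and follow from the FPKM given above. By FPKM, 28.7% of all tested genes were ordered upwards in both lines and 16.5% downwards.

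The ratio of the Fos sum to the Jun sum was 0.433 and 0.418 after SUPT4H1 siRNA and 0.405 and 0.398 after control siRNA in line 1. In line 2 this ratio was 0.465 and 0.471 after SUPT4H1 siRNA and 0.422 and 0.423 after control siRNA. It was higher in every SUPT4H1 siRNA sample than in both control samples of its line, a mean log2 difference of 0.12. The exact permutation test within the lines gave p = 0.0556, the smallest its 36 arrangements allow, and over all 70 arrangements p = 0.0857, both 2-sided.

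**Figure D3:**
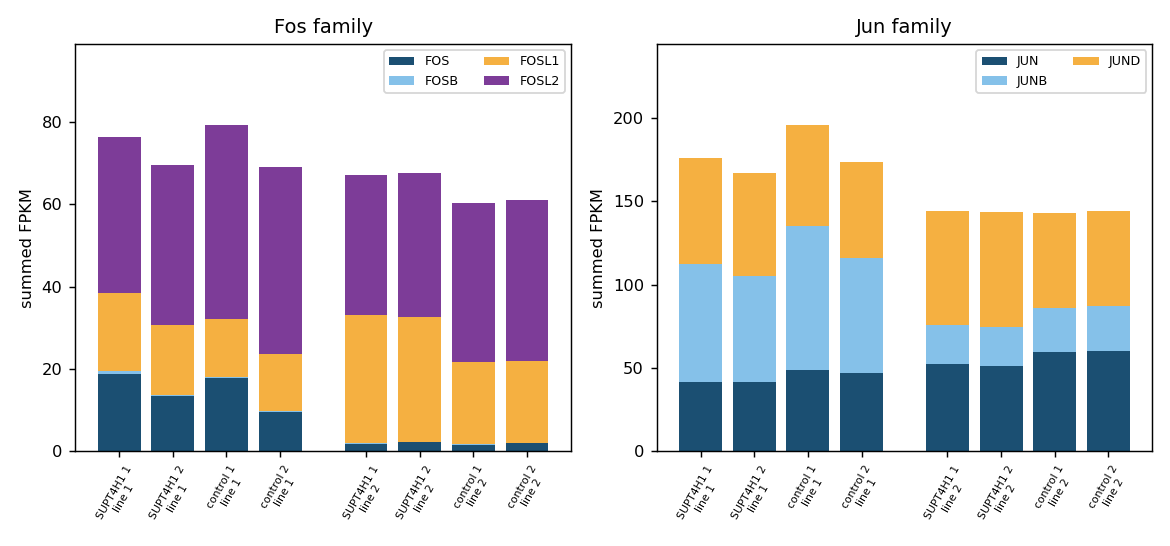
Summed FPKM (vertical axis, from 0) of the Fos family on the left and the Jun family on the right, 1 bar per sample, split by gene. Labels under the bars give the siRNA, the replicate and the line. The orange part, FOSL1 or JUND, is larger in the SUPT4H1 siRNA samples of each line, and the dark blue FOS part nearly vanishes in line 2.

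Genes whose pattern over the 8 samples came closest to that of a member were found by the mean absolute difference in log2(FPKM + 1), each taken relative to the control mean of its line. For JUN these were NR2C2, PFKP and UBXN1, with differences of 0.0072 to 0.0138. For FOSL2 they were CD97, MEIS3 and LDHA (0.0184 to 0.0198), and JUN was the member nearest to FOSL2, at 0.0271, place 25 among 11485 genes. JUND came closest to CYLD, TACC2 and BRI3 (0.0077 to 0.0142), MAFF to PODXL, MEDAG and ASPA (0.012 to 0.0272), and FOSL1 to PIK3R1, KPNA2 and KIAA1217 (0.023 to 0.0254). JUNB was nearest to LINC01184, PCGF1 and IRF2BP2 (0.0461 to 0.0488). No gene came closer to FOS than 0.129, the value of STARD4, followed by FAM229A and RECQL4.

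Genes around AP-1 were read from lists of its partners, regulators and targets, with the same fit. The shares over all tested genes, 26.4% that rose and 15.0% that fell, are the background. The list of AP-1 dimer partners and other bZIP factors had 23 tested genes, of which 4 rose (17.4%) and 8 fell (34.8%), with a median log2 change of -0.05. DDIT3, the stress factor CHOP, stood at 21.97 ± 3.46 FPKM after SUPT4H1 siRNA and 30.3 ± 1.10 FPKM after control siRNA (SD, n = 4 each), a log2 change of -0.46 (adjusted p = 0.0011 in limma). ATF4, which switches on stress genes such as DDIT3 and ATF3, fell by 0.35 on the log2 scale (adjusted p = 0.00326), and MAF, a large Maf factor, by 0.34 (3.34e-04). Among the rises, CREB3 changed by 0.18, ATF6 by 0.17 and BACH1, a partner of small Maf proteins, by 0.14. DDIT3 alone of these 6 passed without a term for the line (adjusted p = 0.0453).

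Of 29 other immediate early genes tested, 8 rose (27.6%) and 12 fell (41.4%), against 26.4% and 15.0% of all tested genes. The list median was -0.05. EGR2, a zinc finger factor, stood at 0.923 ± 0.549 FPKM after SUPT4H1 siRNA and 3.09 ± 1.48 FPKM after control siRNA (SD, n = 4 each), a log2 change of -1.06 (SE 0.06, adjusted p = 6.43e-06 in limma), or -1.69 with 0.1 added in place of 1. After SUPT4H1 siRNA EGR2 averaged 1.40 FPKM in line 1 and 0.448 FPKM in line 2, so that it came through the filter by its level after control siRNA. CTGF, a matricellular protein, fell by 0.82 and BHLHE40, a circadian repressor, by 0.78 on the log2 scale. SGK1, a kinase, rose by 0.61, BTG2, which restrains growth, by 0.59 and DUSP5, a nuclear phosphatase of ERK, by 0.55. BTG2 alone of these 6 passed without a term for the line (adjusted p = 0.021). IER2, IER5, MCL1, ZFP36, DUSP1 and RHOB were among the 9 that did not pass, though the response of RHOB differed between the lines (log2 -0.30 in line 2 and 0.06 in line 1, adjusted p of the difference 0.00152).

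**Figure D4:**
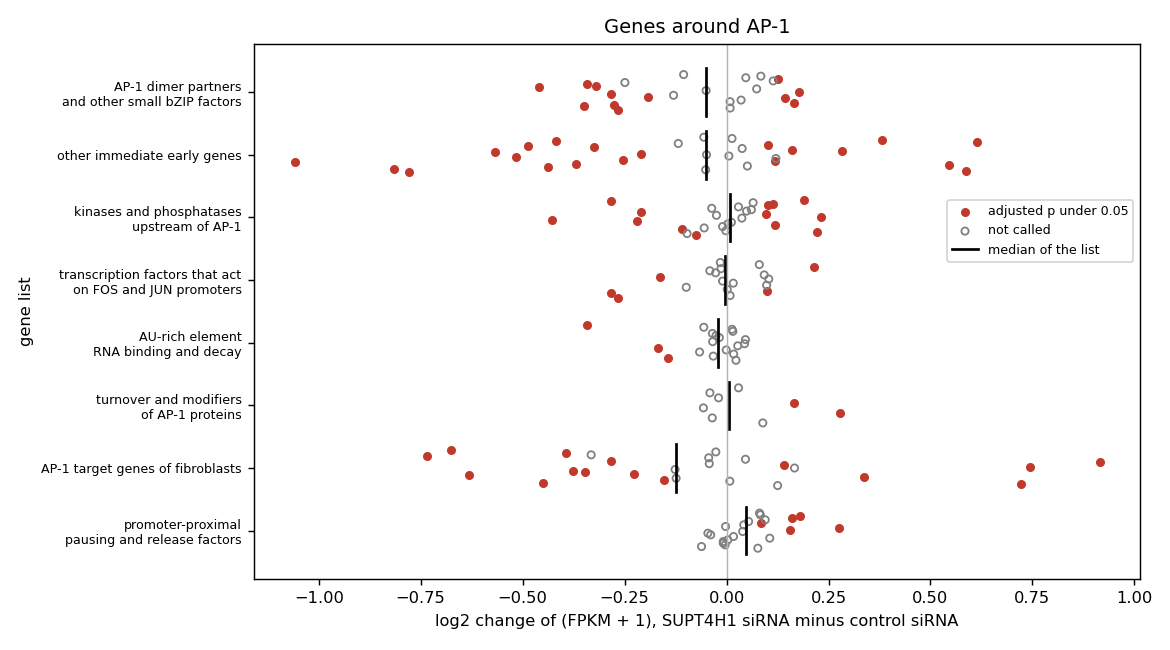
Log2 change of FPKM + 1, SUPT4H1 siRNA minus control siRNA with the line as block (horizontal axis), of each tested gene in 8 lists around AP-1. Filled points passed at an adjusted p under 0.05 over all 11486 genes, open points did not, and black bars are list medians, which lie between -0.12 for the targets and 0.05 for the pausing factors. The lowest point is EGR2 and the highest is MMP3.

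The 26 kinases and phosphatases upstream of AP-1 split into 7 rises (26.9%) and 6 falls (23.1%), against 26.4% and 15.0% of all tested genes. The list median was 0.01. MAP2K6, which activates p38, fell by 0.43, RPS6KA3, the ERK-activated kinase RSK2, by 0.28 and MAP2K5, which activates ERK5, by 0.22 on the log2 scale. MAP3K1, DUSP10 and RPS6KA4, the kinase MSK2, rose by 0.23, 0.22 and 0.19. RPS6KA3 alone of these 6 passed without a term for the line (adjusted p = 0.0368), and the call of MAP2K6 was lost without any 1 sample of line 2 (up to 0.101), with no filter on FPKM and with replicate numbers paired within the lines. MAPK3, MAPK8 and MAPK14, the kinases ERK1, JNK1 and p38 alpha, did not pass.

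Among 18 transcription factors that act on FOS and JUN promoters, 2 rose (11.1%) and 3 fell (16.7%), against 26.4% and 15.0% of all tested genes. The list median was 0.00. CREB1 stood at 4.77 ± 0.757 FPKM after SUPT4H1 siRNA and 5.99 ± 0.577 FPKM after control siRNA (SD, n = 4 each), a log2 change of -0.28 (adjusted p = 3.66e-04 in limma), and its relative ATF1 changed by -0.27. Both bind the word TGACGTCA printed above. NFYA, a subunit of the factor that binds CCAAT, fell by 0.16, and ELK1, a partner of SRF, rose by 0.10, though ELK1 did not pass after scaling (0.07, adjusted p = 0.0835), with replicate numbers paired (0.0527) or without any 1 of 5 samples, all 4 of line 2 among them. Without a term for the line none of these 4 passed. SRF itself did not pass.

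Among 18 genes for AU-rich element binding and RNA decay, 0 rose and 3 fell (16.7%), against 26.4% and 15.0% of all tested genes. ZFP36L2 fell by 0.34, DCP2 by 0.17 and CNOT6 by 0.14 on the log2 scale. The other 15, ZFP36 and ELAVL1 among them, did not pass. Of 8 genes for turnover and modification of AP-1 proteins, 2 rose and 0 fell. FBXW7, the ubiquitin ligase subunit that marks c-Jun, rose by 0.28 (adjusted p = 0.0048 in limma). Of the 4 genes named here as changed, none passed without a term for the line.

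Targets of AP-1 in fibroblasts went both ways, with 5 rises (20.0%) and 10 falls (40.0%) among 25 tested. The shares over all tested genes were 26.4% and 15.0%, and the list median was -0.12. MMP3, the protease stromelysin, stood at 10.3 ± 5.99 FPKM after SUPT4H1 siRNA and 5.25 ± 3.71 FPKM after control siRNA (SD, n = 4 each), a log2 change of 0.91 (adjusted p = 5.47e-06 in limma). CCND1, which encodes cyclin D1, rose by 0.72 in the same fit. MMP12, a macrophage elastase, also passed (0.74, or 1.60 with 0.1 added in place of 1). It averaged 3.55 FPKM after SUPT4H1 siRNA and 0.941 FPKM after control siRNA in line 2, and 0.235 and 0.033 FPKM in line 1, so that it came through the filter only by its level in line 2 after SUPT4H1 siRNA. VEGFA, a vessel growth factor, fell by 0.67 and FGF7, a growth factor for epithelia, by 0.63 on the log2 scale. VEGFA and FGF7 also passed without a term for the line (adjusted p = 0.00276 and 0.00509), and MMP3, MMP12 and CCND1 did not. MMP1, MMP2, PLAU, PLAUR and TIMP1 did not pass over both lines. The response differed between the lines, with opposite signs, for MMP1 (log2 -0.19 in line 2 and 0.53 in line 1, adjusted p of the difference 0.00572), PLAU (0.35 and -0.26, 3.74e-04), PLAUR (0.16 and -0.25, 0.0358) and MMP2 (-0.14 and 0.05, 0.0165).

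Of 22 factors of promoter-proximal pausing and release, 5 rose (22.7%) and 0 fell, against 26.4% and 15.0% of all tested genes. The list median was 0.05. MEPCE, which caps and stabilises 7SK RNA, rose by 0.27, RTF1, an elongation factor, by 0.18 and POLR2A, the large subunit of RNA polymerase II, by 0.16 on the log2 scale. MEPCE and RTF1 also passed without a term for the line (adjusted p = 0.0486 and 0.015). Of the 4 genes of the pausing complex NELF, NELFCD rose by 0.08 on the log2 scale (adjusted p = 0.0396, 0.331 without a term for the line), and NELFA, NELFB and NELFE did not pass. SUPT5H, the other DSIF subunit, did not pass either (0.08, adjusted p = 0.0636).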

How the data were processed

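The authors deposited FPKM values per gene with interval bounds and a status, 1 table of 27032 rows per sample, on hg19 per the submitters' processing notes. Which aligner, quantifier and annotation were used, and whether strand was, is not given in the sources used here. Reads of a gene and an antisense partner may therefore be mixed. FPKM are relative, so a rise of a few abundant mRNAs lowers the rest. Fragment totals are unknown, and the deposited intervals say nothing of differences between cultures. Their median half-width, as a share of the value, was 14.9 to 17.5% for genes at 1 to 2 FPKM and 5.09 to 5.64% for genes at 10 to 100 FPKM.

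Rows of 1 symbol were summed (129 of the tested symbols), and starts in the tables count from 0 and were raised by 1. Genes with a mean of at least 1 FPKM and the status OK in every sample were tested (11486) on log2(FPKM + 1) by limma 3.58.1 (R 4.3.3) with the line as block (5 residual degrees of freedom) and trended variance. Tests were 2-sided, and p-values were adjusted over all of them by Benjamini-Hochberg. Responses within a line came from a fit of 4 group means (4 residual degrees of freedom). The fits were run on simulated data with independent noise and the same response in both lines. The real data need not share these settings. No pair of samples shared the same value in more than 29 tested genes. Same-line deviations from the siRNA group means correlated at 0.713 to 0.81 across genes, and the lines pair the samples because they are the same cells. Python 3.11.15, pandas 2.3.3 and matplotlib 3.10.9 read the tables and drew the plots. Alternatives were no block, replicate numbers as block, another pseudocount, other filters, scaling, no trend, summed symbols left out, and each sample left out. The members and lists were chosen with earlier results of these data known. Named genes are all members, SUPT4H1, up to 3 called genes per direction with the largest change in each list, and the 3 closest in pattern to each member. Some genes that this rule chose are not reported here, though the counts of their lists include them. Other genes named as not passing were chosen after their values were seen.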

Additional observations from a re-analysis of the deposited data

Results flagged for a closer look

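The response to SUPT4H1 siRNA differed between the lines, by a test of the difference itself, for 3 of the 7 AP-1 genes tested and for 12 of the 34 other genes named, which were picked for large changes, against 8.87% of all genes tested. Of the 3, MAFF passed without any 1 sample, while FOSL1 and JUND were lost in 7 of the 8 such fits each. On the log2 scale the response in line 2 minus that in line 1 was 0.54 for MAFF, 0.28 for FOSL1 and 0.18 for JUND. MAP2K6 (-0.79), ATF4 (-0.35), DDIT3 (-0.35), MAP2K5 (-0.29) and VEGFA (-0.26) had the lower value in line 2, and each was below 0 in both lines. MMP3 rose less in line 2 than in line 1 (-0.22). MMP12 (0.97), SGK1 (0.65), BTG2 (0.38) and DUSP10 (0.27) had the larger positive value in line 2. MMP12, which is among the 12, came through the filter only by its level in line 2 after SUPT4H1 siRNA. The direction of its difference was therefore partly set by the filter. BHLHE40 (0.31) and CTGF (0.31) fell less in line 2 than in line 1.

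Among 92 groups of 4 samples, 1 held a sample apart from the rest: VEGFA stood at 33.5 FPKM in the second SUPT4H1 siRNA sample of line 1 above the other 3 SUPT4H1 siRNA samples (mean 31.8 FPKM in line 2), a gap of 0.832 of the range. Chance flags about 1 in 20 groups where all 4 samples vary alike. Each group here joins both lines, whose levels differed for many genes, so that rate need not hold.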

How the results depend on the processing

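The term for the line mattered most. With no replicate block the counts over all genes were 405 rises and 199 falls, against 3036 and 1724 with the line as block, those for the members 0 and 0 against 3 and 3, and those for the list genes 4 and 9 against 33 and 40. All 604 genes called without the block were called with it. Taking the line and the replicate number as replicate block gave 2528 rises and 1411 falls over all genes and 3 and 3 among the members. Deviations of same-numbered samples within a line correlated at 0.196 in line 1 and 0.085 in line 2, so the numbers were not taken to pair them. The count of members whose response differed between lines was 3, against 1 when genes of low FPKM were kept, 1 without trended variance and 1 to 2 without 1 sample, where MAFF passed each time. Members called in line 1 were 3 to 5 without 1 sample. Where 1 sample is left out, the lone sample of its group is assumed to vary like the rest. FOSB turned to -0.0288 with a pseudocount of 0.1, to -0.036 without control replicate 2 of line 1 and to -0.0795 without SUPT4H1 replicate 1 of line 1, all with no filter. The cause was not tested. FOSL1, FOSL2, JUN and JUND were called in 15 of 16 alternatives each, all but the fit with no block, and ATF3 in 14 of 14. The added fits of ATF3 and FOSB with no filter were chosen after seeing the data. Depth limits FOSB and ATF3 most.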
